A study of Rattus norvegicus with 12 samples.

Results

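In the RNA-seq of the rat left atrium, 36 of 21239 genes with counts stood apart between all 9 libraries of spontaneously hypertensive rats and all 3 libraries of Wistar-Kyoto rats (WKY). A gene belonged to the set when the lowest of the 9 libraries lay at least 2 above the highest WKY library in log2 CPM (counts scaled to the total of their library, with a prior count of 1), or when the highest of the 9 lay at least 2 below the lowest WKY library. Of the 36 genes, 18 were higher and 18 were lower in the hypertensive strain, which is 0.0847% of all genes in each direction. The genes were chosen by these levels, so the levels are described without a test.

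The study compared 4 groups of 3 male rats, purchased at 14 weeks of age and treated for 4 weeks. WKY rats and the SHR group (spontaneously hypertensive rats) received saline at 7.5 mL/kg/day, the ARB group (hypertensive rats) received valsartan, an angiotensin receptor blocker, at 30 mg/kg/day, and the ARNI group (hypertensive rats) received sacubitril/valsartan, which also inhibits neprilysin, at 60 mg/kg/day. The 9 libraries of the SHR, ARB and ARNI groups are called the SHR-strain libraries here. For the saline groups the strain words of the sample titles went against the library names, as did the phenotype label of the WKY libraries, and all 12 libraries carried the strain label of Wistar-Kyoto. The libraries were grouped by name, so every strain difference below is one between libraries so named.

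In 40 genes the 6 drug-treated libraries lay at least 2 log2 CPM from the libraries named WKY, and the 36 genes described here are among these by the rule. In 0 genes did the drug-treated libraries lie at least 2 from the libraries named SHR. Chamber markers also set the libraries named WKY apart, as given below, so these counts do not settle the strain labels.

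The spontaneously hypertensive rat was bred from WKY stock for high blood pressure, and the strains differ at many places in the genome. A gene can be silent or lost in 1 inbred strain and active in the other, and such a difference is carried by every animal whatever its treatment. Atrial and ventricular heart muscle also express different sets of genes, among them the light chains of myosin.

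The tissue markers went against the label of left atrium in 4 libraries. The summed level of 10 atrial markers was 157 to 366 CPM in WKY and 161 CPM in ARNI replicate 2, against 28010 to 77760 CPM in the other 8 libraries. The summed level of 8 ventricular markers was 44260 to 44550 CPM in WKY and 685 to 19960 CPM in the SHR-strain libraries, with the highest value in ARNI replicate 2, followed by ARB replicate 3 (11540 CPM) and SHR replicate 2 (10830 CPM), which held atrial and ventricular markers together. The member Myh7 made up most of the WKY sum, with 32130 to 32740 CPM against 5907 CPM in ARNI replicate 2. In that library Myl3 (8440 CPM against 7005 to 7632 CPM), Myl2 and Kcnip2 were above WKY. Hey2 and Mpped2 were within the WKY range there, and Irx4 and Nav2 below it. Not every marker followed its class, since the atrial Kcna5 was 7.13 to 14.15 CPM in WKY and 0.992 to 8.175 CPM in the SHR strain. The ventricular Nav2 was 62.0 to 76.4 CPM in WKY and 50.2 to 171 CPM in the SHR strain. Its highest value was in SHR replicate 3. A score of mean atrial minus mean ventricular marker level, computed without the members Mybphl and Myh7, was -5.39 to -5.22 in WKY, -4.61 in ARNI replicate 2, 0.98 in SHR replicate 2, 1.11 in ARB replicate 3 and 4.94 to 6.46 in the other 6 libraries. Between WKY and the other 8 libraries, strain and chamber markers cannot be told apart, and the values of ARNI replicate 2, whose marker score was nearest to WKY, are given below. Without that library the same rule took in 105 higher and 23 lower genes.

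**Figure D1:**
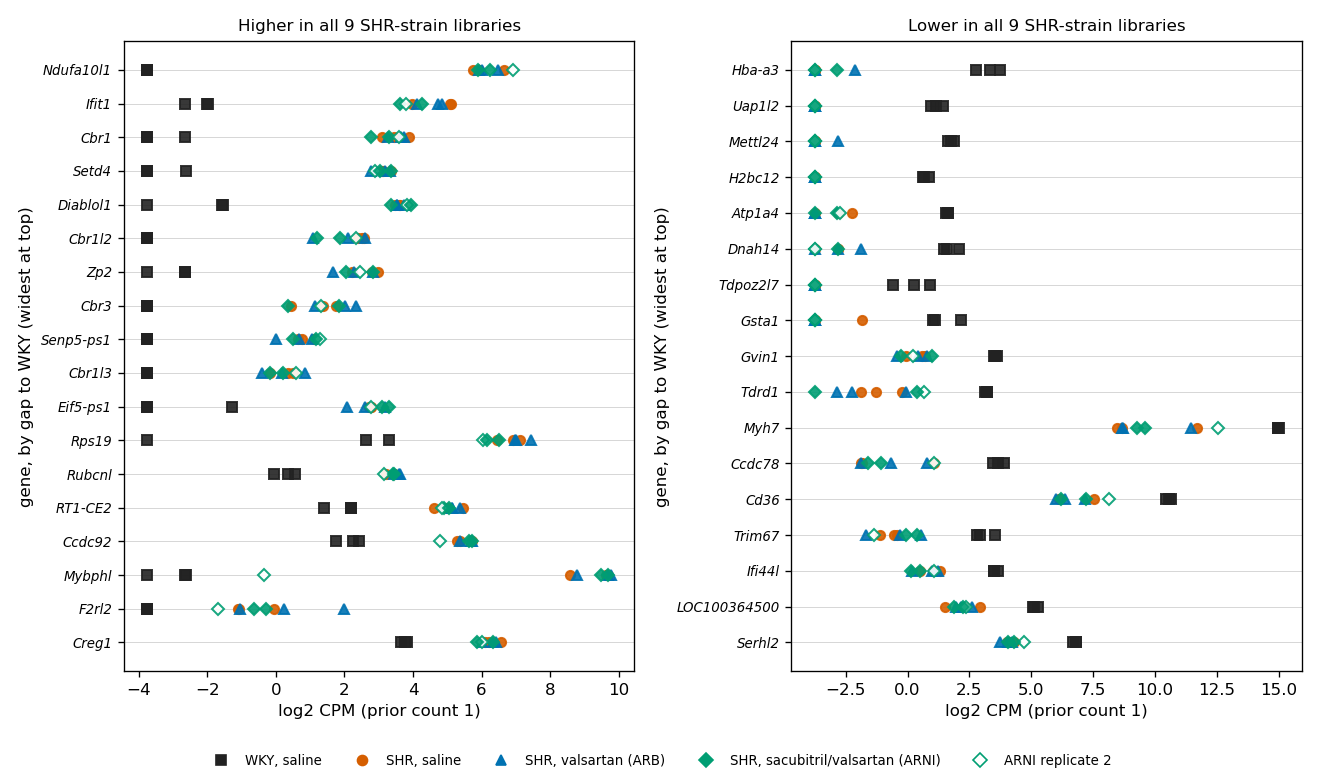
Levels of 35 of the genes in log2 CPM (prior count 1) on the x axis, with 1 row per gene and 1 point per library. The 3 WKY libraries (black squares) lie at least 2 units from every SHR-strain library, and ARNI replicate 2 is drawn as an open diamond.

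The widest difference was in Ndufa10l1, named as a relative of Ndufa10, an accessory subunit of respiratory complex I. No read fell on it in WKY, and it had a lowest, median and highest level of 54.0, 64.75 and 119 CPM in the 9 SHR-strain libraries, the highest being ARNI replicate 2. With WKY set at a floor of 3 counts per library, the mean of the 9 (76.1 ± 22.5 CPM, SD) was at least 291-fold higher. Ndufa10 itself was lower in the SHR strain, with 605, 599 and 605 CPM in WKY against 202 to 476 CPM, and it passed the test in the fit over all genes (edgeR quasi-likelihood, log2 fold change -1.08, SE 0.28, adjusted p = 0.0201). Its level was 476 CPM in ARNI replicate 2, 401 CPM in SHR replicate 2 and 384 CPM in ARB replicate 3. The remaining SHR-strain libraries had 202 to 301 CPM. The part of the chamber markers in the level of Ndufa10 was not tested. The sum of both genes was 599 to 605 CPM in WKY and 256 to 595 CPM in the SHR strain. For Ndufa10l1, 9 of 12 expected counts were not whole, as happens where reads are shared between like sequences.

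Setd4 and 4 carbonyl reductase genes formed 1 block on chromosome 11. Cbr1 and Cbr3 encode carbonyl reductases, cytosolic enzymes that reduce carbonyl groups in drugs and prostaglandins. Setd4 encodes a SET domain protein methyltransferase. In the RefSeq order Setd4 and Cbr1 have 1 gene between them, Cbr1 and Cbr1l2 have 3, Cbr1l2 and Cbr1l3 have 1, and Cbr1l3 and Cbr3 have 0. The windows around their annotated starts are shown because these 5 genes are the members that neighbour each other. Each holds 250 bases before and 50 bases after the start in RefSeq's GRCr8 assembly, written 5′ to 3′ on the gene's strand, with the transcribed 50 bases in capitals.
Setd4 (chr11:46343975-46344274, - strand): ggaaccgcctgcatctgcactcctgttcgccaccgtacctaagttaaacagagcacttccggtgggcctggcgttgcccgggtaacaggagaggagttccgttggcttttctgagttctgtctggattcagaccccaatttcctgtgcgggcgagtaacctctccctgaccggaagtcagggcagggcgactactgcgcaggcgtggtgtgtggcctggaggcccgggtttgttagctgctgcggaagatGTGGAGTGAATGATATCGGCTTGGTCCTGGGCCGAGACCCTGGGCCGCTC
Cbr1 (chr11:46346155-46346454, + strand): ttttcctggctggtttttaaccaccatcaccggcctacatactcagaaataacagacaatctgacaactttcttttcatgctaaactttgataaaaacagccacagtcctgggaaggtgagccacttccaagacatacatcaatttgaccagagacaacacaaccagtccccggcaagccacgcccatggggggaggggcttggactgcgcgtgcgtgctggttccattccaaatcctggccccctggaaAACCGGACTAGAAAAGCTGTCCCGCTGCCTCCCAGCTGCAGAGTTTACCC
Cbr1l2 (chr11:46378224-46378523, + strand): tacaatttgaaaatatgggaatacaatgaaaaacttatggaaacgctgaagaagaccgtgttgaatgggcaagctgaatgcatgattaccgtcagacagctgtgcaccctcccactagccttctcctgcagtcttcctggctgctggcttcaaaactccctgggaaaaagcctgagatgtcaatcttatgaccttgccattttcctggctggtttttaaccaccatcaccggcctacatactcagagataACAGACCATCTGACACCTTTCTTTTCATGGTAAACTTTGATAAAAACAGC
Cbr1l3 (chr11:46455142-46455441, + strand): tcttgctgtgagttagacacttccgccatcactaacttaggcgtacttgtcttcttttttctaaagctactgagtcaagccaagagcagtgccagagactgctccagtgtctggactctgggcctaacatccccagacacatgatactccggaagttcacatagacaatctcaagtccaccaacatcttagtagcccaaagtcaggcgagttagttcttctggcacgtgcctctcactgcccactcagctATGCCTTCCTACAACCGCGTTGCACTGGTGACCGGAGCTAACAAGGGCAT
Cbr3 (chr11:46478045-46478344, + strand): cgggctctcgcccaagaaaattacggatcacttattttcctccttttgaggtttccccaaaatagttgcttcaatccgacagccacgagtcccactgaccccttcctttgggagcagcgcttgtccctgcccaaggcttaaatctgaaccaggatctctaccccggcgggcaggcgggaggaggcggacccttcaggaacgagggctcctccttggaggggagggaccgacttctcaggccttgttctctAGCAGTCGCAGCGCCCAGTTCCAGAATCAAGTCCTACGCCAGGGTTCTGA

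The windows of Cbr1 and Cbr1l2 shared an unbroken run of 47 bases, which lies at the 5′ end of the Cbr1 window and just before the start in that of Cbr1l2. The other pairs of these 5 windows shared no run longer than 9 bases. Cbr1 was 285 of 301 aligned positions identical to the window of Cbr1l1, a gene that lies between Cbr1 and Cbr1l2 and was not analysed here.

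All 5 genes of the block were at or near 0 in WKY and present in each SHR-strain library. Setd4 had 0, 0 and 0.0889 CPM in WKY, a total of 1 count, and a lowest, median and highest level of 6.74, 8.67 and 10.2 CPM in the SHR strain. Cbr1 had 0.0853, 0 and 0 CPM in WKY and 6.73, 10.9 and 14.6 CPM in the SHR strain. Both genes kept a narrow range among the 9 libraries, 0.60 log2 for Setd4 and 1.11 log2 for Cbr1.

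Cbr1l2, Cbr1l3 and Cbr3 had no read in WKY. Their lowest, median and highest levels in the SHR strain were 2.06, 4.99 and 5.93 CPM for Cbr1l2. They were 0.717, 1.12 and 1.71 CPM for Cbr1l3. They were 1.22, 2.48 and 4.99 CPM for Cbr3. With the floor of 3 counts per WKY library, the means were at least 16.9-fold, 4.38-fold and 10.8-fold higher. ARNI replicate 2 did not stand apart from the others in the block, where its level differed from the median of the other 8 by -0.25 to 0.38 log2.

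Genes with counts on the Cbr3 side of the block did not stand apart in this way. Dop1b, the next gene with counts after Cbr3, overlapped between the strains, with 24.3 to 28.2 CPM in WKY and 16.7 to 37.8 CPM in the SHR strain. Morc3 was 44.7 to 46.0 CPM in WKY and 28.5 to 41.8 CPM in the SHR strain. On the Setd4 side, RGD1562683 had no read in any library, so its level was not detectable. Of the carbonyl reductases outside the block, Cbr4, a mitochondrial enzyme chosen after its values were seen, was lower in the SHR strain, 28.9 to 31.6 CPM against 8.78 to 17.1 CPM (edgeR, log2 fold change -1.30, SE 0.19, adjusted p = 0.002008). For Cbr1, Cbr1l2, Cbr1l3 and Cbr3, 9 of 12 values each were not whole, so reads were divided among like sequences and the level of each single copy is uncertain.

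**Figure D2:**
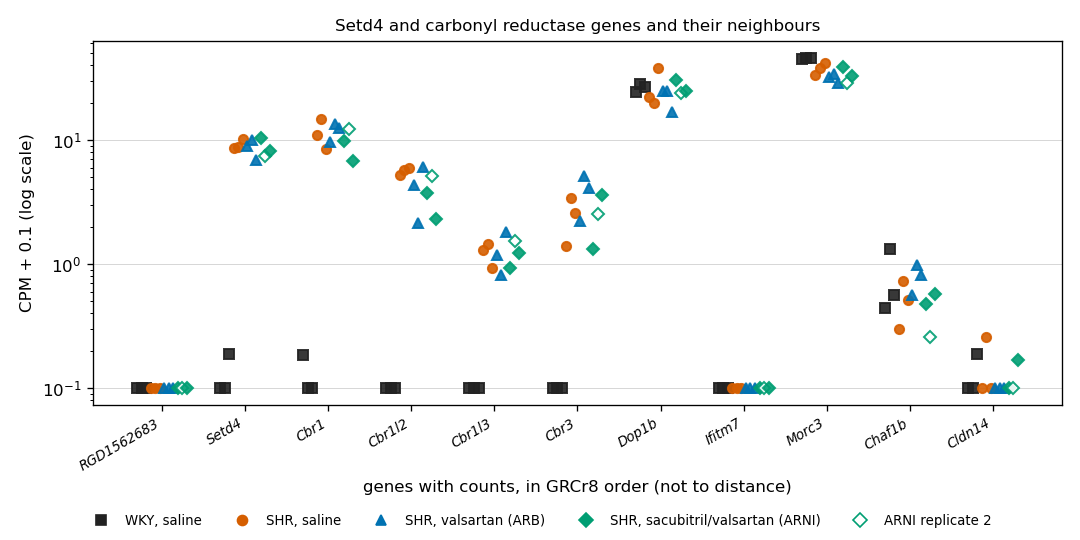
Level of each gene with counts, as CPM + 0.1 on a log scale, in the order of the genes on GRCr8, with 1 point per library. Setd4 to Cbr3 sit at or near the floor in WKY and between 0.717 and 14.6 CPM in the SHR-strain libraries, while Dop1b overlaps.

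Interferon-induced genes went in both directions. Ifit1, which encodes an RNA-binding antiviral protein, had 0.0946, 0.177 and 0.194 CPM in WKY and a lowest, median and highest level of 12.2, 19.2 and 34.3 CPM in the SHR strain. Its WKY values rest on 5.33 expected counts in all. Ifi44l was at 12.5, 11.3 and 11.1 CPM in WKY and 1.01, 1.93 and 2.37 CPM in the SHR strain, 6.80-fold lower. Gvin1, a very large interferon-inducible GTPase, was at 11.2, 12.2 and 11.6 CPM in WKY and 0.661, 1.24 and 1.88 CPM in the SHR strain, 9.43-fold lower.

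Named relatives of Ifit1 and Ifi44l overlapped between the strains. Ifit3 overlapped, with 9.65 to 19.5 CPM in WKY and 5.51 to 15.4 CPM in the SHR strain, and Ifit2 overlapped as well, with 26.3 to 50.8 CPM against 13.7 to 34.2 CPM. Ifit1bl was 4.38 to 5.04 CPM in WKY and 2.46 to 6.28 CPM in the SHR strain. Ifit2 passed the test in the direction opposite to Ifit1 (edgeR, log2 fold change -1.02, SE 0.24, adjusted p = 0.0144). None of the 12 values of Ifit1, Ifit2 or Ifit1bl was whole. Their reads were thus divided among like sequences, and the level of each single gene is uncertain. Ifi44 was 21.5 to 30.4 CPM in WKY and 17.1 to 31.3 CPM in the SHR strain. These relatives were chosen after their values were seen. Across 38 tested genes of complement and innate immunity, 2 were called higher and 3 lower, beside 4.8% and 2.73% of all genes tested. Their median log2 fold change was -0.08, beside 0.02 over all genes, and they include Ifit1, which was chosen by its level. These 5 calls became 1, 2 and 1 without WKY replicates 1, 2 and 3, 2 without ARB replicate 1, 3 without SHR replicate 2, without ARB replicate 2 or on total counts, 8 without ARNI replicate 2, and 2 with the chamber score as a covariate. Of the 3 genes with the largest fold change besides the members, Tlr7, a receptor for single-stranded RNA, fell (log2 fold change -1.50, SE 0.43, edgeR adjusted p = 0.0303), and the complement genes C4a (1.97, adjusted p = 0.0609) and C6 (1.83, adjusted p = 0.143) did not pass.

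The window around the start of Ifi44l is shown for the interferon response motif, here a pair of GAAA half-sites around a spacer of 2 bases, searched on both strands. Its 2 matches are in capitals, the upstream match being on the opposite strand.
Ifi44l (chr2:243328473-243328772, + strand): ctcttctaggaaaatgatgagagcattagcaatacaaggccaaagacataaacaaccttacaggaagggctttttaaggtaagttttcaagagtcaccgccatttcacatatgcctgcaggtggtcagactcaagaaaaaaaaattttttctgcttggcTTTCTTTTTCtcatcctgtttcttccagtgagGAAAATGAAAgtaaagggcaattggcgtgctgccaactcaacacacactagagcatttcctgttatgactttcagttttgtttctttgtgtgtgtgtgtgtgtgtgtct
The motif was found in 3.92% of all 33469 RefSeq windows of this length and, of the 27 members with a window, in Ifi44l alone. No window was available for Ifit1, so it was not searched. The antioxidant response motif TGACNNNGC was found in 12.1% of all windows and in those of Cbr1l2, Gsta1, Myh7 and Serhl2.

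**Figure D3:**
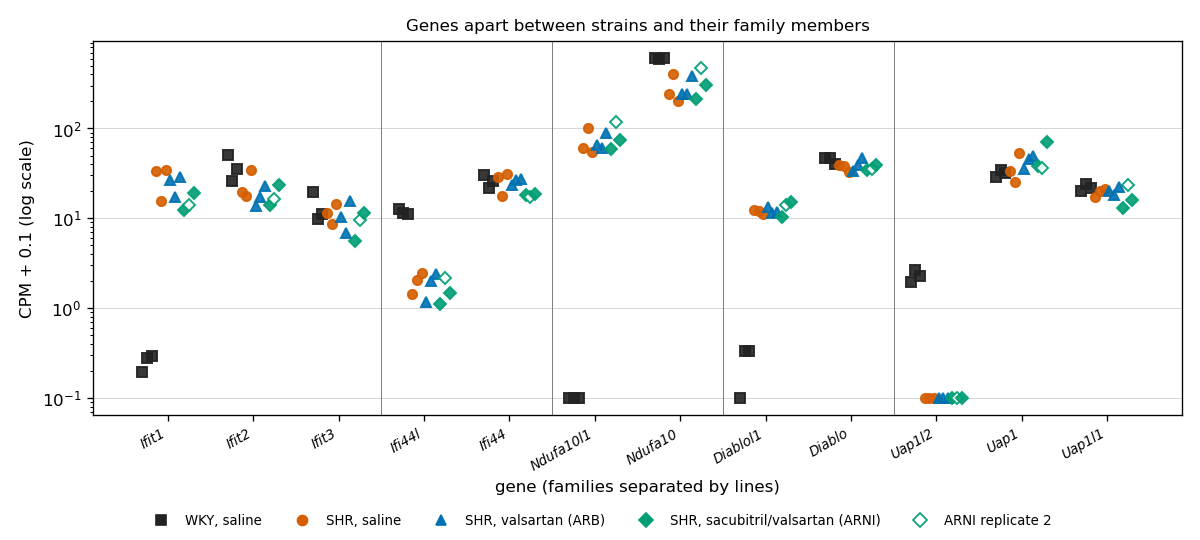
Levels of 5 members and their relatives as CPM + 0.1 on a log scale, with 1 point per library and lines between families. Ifit1, Ndufa10l1 and Diablol1 are near the floor in WKY, Uap1l2 is at 0 in the SHR strain, and Ifit2, Ifit3, Ifi44, Diablo, Uap1 and Uap1l1 overlap between the strains.

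Genes named as copies or pseudogenes of other genes made up a further group. Diablol1, a relative of the apoptosis regulator Diablo, had 0, 0.237 and 0.233 CPM in WKY and a lowest, median and highest level of 10.2, 12.1 and 15.2 CPM in the SHR strain. Diablo overlapped, with 40.4 to 47.2 CPM in WKY and 32.6 to 46.4 CPM in the SHR strain. The pseudogene Senp5-ps1 had no read in WKY and 0.926, 1.595 and 2.37 CPM in the SHR strain. The pseudogene Eif5-ps1 had 0.356, 0 and 0 CPM in WKY and 4.17, 6.78 and 9.80 CPM in the SHR strain. Both parent genes overlapped between the strains, Senp5 with 24.8 to 26.9 against 21.1 to 34.3 CPM and Eif5 with 198 to 209 against 159 to 222 CPM.

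An entry for the ribosomal protein gene Rps19 had 6.12, 9.84 and 0 CPM in WKY and 65.4, 121.6 and 174 CPM in the SHR strain. The locus LOC100364500 went the other way, with 33.8, 39.0 and 33.9 CPM in WKY and 2.76, 4.70 and 7.58 CPM in the SHR strain. Neither entry was found in the RefSeq table. At least 6 of 12 values were not whole in 18 of the 36 genes (50.0%) and in 25.6% of all genes with a read, so the level of 1 copy is uncertain in many of the 36. A value of 0 counts as whole, so a gene at 0 in all SHR-strain libraries could not reach 6.

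Other genes higher in the SHR strain had varied roles. Zp2, a glycoprotein of the egg coat, had 0.0853, 0.0870 and 0 CPM in WKY and 3.11, 5.42 and 7.86 CPM in the SHR strain, and all of its values were whole. Rubcnl, a regulator of autophagosome maturation, had 1.19, 1.39 and 0.889 CPM in WKY and 8.73, 10.8 and 12.2 CPM in the SHR strain, 9.19-fold higher. Ccdc92 had 4.69, 3.30 and 5.32 CPM in WKY and 27.7, 49.45 and 53.0 CPM in the SHR strain, the lowest being ARNI replicate 2. Creg1, a secreted glycoprotein of the lysosome pathway, had 13.4, 14 and 12.5 CPM in WKY and 58.1, 74.5 and 94.4 CPM in the SHR strain, 5.59-fold higher.

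RT1-CE2, a class I gene of the rat histocompatibility complex, had 4.54, 4.49 and 2.61 CPM in WKY and 24.5, 33.3 and 44.0 CPM in the SHR strain, 8.69-fold higher. None of its 12 values was whole, and class I genes are alike in sequence. Of 33 tested genes of histocompatibility and antigen presentation, 3 were called higher and 7 lower, beside 4.8% and 2.73% of all 14452 genes tested. Their median log2 fold change was -0.65, and they include RT1-CE2, which was chosen by its level. With the chamber score 6 of this list were called. Of the other genes of this list, RT1-N2 (log2 fold change -3.10, SE 0.23, edgeR adjusted p = 7.07e-06), RT1-Bb (-2.30, adjusted p = 0.00218) and RT1-CE10 (-1.79, adjusted p = 7.28e-06) fell.

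Lower in the SHR strain were several genes with no or almost no read in the 9 libraries. Uap1l2, named as a relative of Uap1, an enzyme of UDP-N-acetylglucosamine synthesis, had 1.87, 2.59 and 2.15 CPM in WKY and 0 in all 9, at least 10.4-fold lower with the floor of 3 counts per library. The histone gene H2bc12 had 1.41, 1.74 and 1.51 CPM in WKY and 0 in all 9. Tdpoz2l7 had 0.597, 1.11 and 1.82 CPM in WKY and 0 in all 9. These low levels rest on few reads, since the largest value of H2bc12 in a library was 19.96 expected counts and that of Tdpoz2l7 20.4. In Uap1l2 and H2bc12 none of the 3 WKY values was whole, so the level of each single copy is uncertain.

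Mettl24, named as a methyltransferase-like protein, had 3.58, 3.31 and 3.02 CPM in WKY and a read in only 1 of the 9 libraries, ARB replicate 2. Dnah14, a dynein heavy chain, had 2.98, 2.70 and 4.09 CPM in WKY and at most 0.198 CPM in the SHR strain, 7 counts over the 9 libraries. Gsta1, a glutathione transferase, had 1.93, 2.13 and 4.33 CPM in WKY and was above 0 only in SHR replicate 3 (0.185 CPM). Of 42 tested genes of glutathione and xenobiotic enzymes, 3 were called higher and 3 lower, beside 4.8% and 2.73% of all genes tested. Their median log2 fold change was 0.05, and they include Gsta1, which was chosen by its level. These 6 calls became 3, 2 and 3 without WKY replicates 1, 2 and 3, and 2 with the chamber score. Gpx3, a glutathione peroxidase (2.79, SE 0.51, edgeR adjusted p = 0.0056), rose in the fit, but its level in ARNI replicate 2 (334 CPM) lay within the WKY range of 242 to 335 CPM, against 1421 to 3000 CPM in the other 8 libraries. Cyp1a1 (-3.51, edgeR adjusted p = 0.022) fell, while Cyp2e1 (-2.13, adjusted p = 0.139) did not pass.

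Hba-a3, an alpha globin gene, had 13.1, 6.73 and 10.1 CPM in WKY and at most 0.172 CPM in the SHR strain, 3.25 expected counts over the 9 libraries. The globin genes Hba-a1 and Hba-a2 overlapped, with 573 to 1189 CPM against 133 to 2060 CPM and 215 to 442 CPM against 57.5 to 907 CPM. The summed level of 7 erythroid markers, which hold these 3 genes, was 1045 to 2180 CPM in WKY and 245 to 3847 CPM in the SHR strain. Its part in the level of Hba-a3 was not tested.

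Atp1a4, a sodium pump subunit known from sperm, had 3.03, 3.04 and 2.86 CPM in WKY and at most 0.140 CPM in the SHR strain, 4.81 expected counts over the 9 libraries.

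Mybphl and Myh7, which mark the atrium and the ventricle, were among the 5 members that ranged over at least 3 log2 within the 9 libraries, as were Tdrd1 and F2rl2. Mybphl, a myosin binding protein of atrial muscle, had 0.0853, 0 and 0.0889 CPM in WKY and 0.708 CPM in ARNI replicate 2, against 384 to 877 CPM in the other 8 libraries. Its level in ARNI replicate 2 was -10.01 log2 from the median of the other 8, and it was a member by a gap of only 2.26. Myh7, the slow myosin heavy chain, had 32280, 32740 and 32130 CPM in WKY and 357, 625 and 5907 CPM as the lowest, median and highest of the SHR strain, the highest being ARNI replicate 2, followed by SHR replicate 2 (3319 CPM) and ARB replicate 3 (2802 CPM).

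Cd36, the fatty acid translocase whose gene is altered in some substrains of the spontaneously hypertensive rat, had 1496, 1382 and 1584 CPM in WKY. In the SHR strain its lowest, median and highest levels were 63.6, 82.9 and 285 CPM, 11.9-fold lower in the mean, and ARNI replicate 2 was the highest. Of 36 tested genes of fatty acid oxidation, 0 were called higher and 1 lower, which was Cd36, beside 4.8% and 2.73% of all genes tested, and the median log2 fold change was -0.92. Without ARNI replicate 2, 26 genes of this list were called, with the replicate number as a block 7, and without SHR replicate 2, by DESeq2 or on total counts 2. Acaa2, a thiolase of fatty acid oxidation, was 1153 to 1218 CPM in WKY and 1562 CPM in ARNI replicate 2, against 136 to 865 CPM in the other 8 libraries. Ucp3 (-3.12, edgeR adjusted p = 0.0538), Pdk4 (-1.33, adjusted p = 0.109) and Acaa2 (-1.32, adjusted p = 0.224), the largest of the others, did not pass. Of 7 tested genes reported for this strain, which include Cd36, 1 was called higher and 2 lower, beside 4.8% and 2.73% of all genes tested, and Cd36, chosen by its level, is among these 3. The others were Endog, a mitochondrial nuclease (-2.37, SE 0.31, edgeR adjusted p = 8.52e-04), and Ephx2, an epoxide hydrolase (1.48, SE 0.33, adjusted p = 0.0117), while Zbtb16 (-0.996, adjusted p = 0.211) did not pass.

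Tdrd1, a Tudor domain protein of the germline piRNA pathway, had 9.12, 9.04 and 8.71 CPM in WKY and 0, 0.339 and 1.49 CPM as the lowest, median and highest of the SHR strain. Ccdc78, a protein of centriole formation in ciliated cells, had 12.5, 10.9 and 14.7 CPM in WKY and 0.198, 0.407 and 2.05 CPM in the SHR strain. In both the values of ARNI replicate 2, SHR replicate 2 and ARB replicate 3 were high among the 9, and for Tdrd1 that of ARNI replicate 3 as well. The range among the 9 libraries was at least 2 log2 in 8 members and under 2 log2 in 28. ARNI replicate 2 lay 1.86 to 3.52 log2 above the median of the other 8 for Cd36, Tdrd1, Ccdc78 and Myh7, against 0.93 for Ndufa10l1 and 0.59 for Serhl2.

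**Figure D4:**
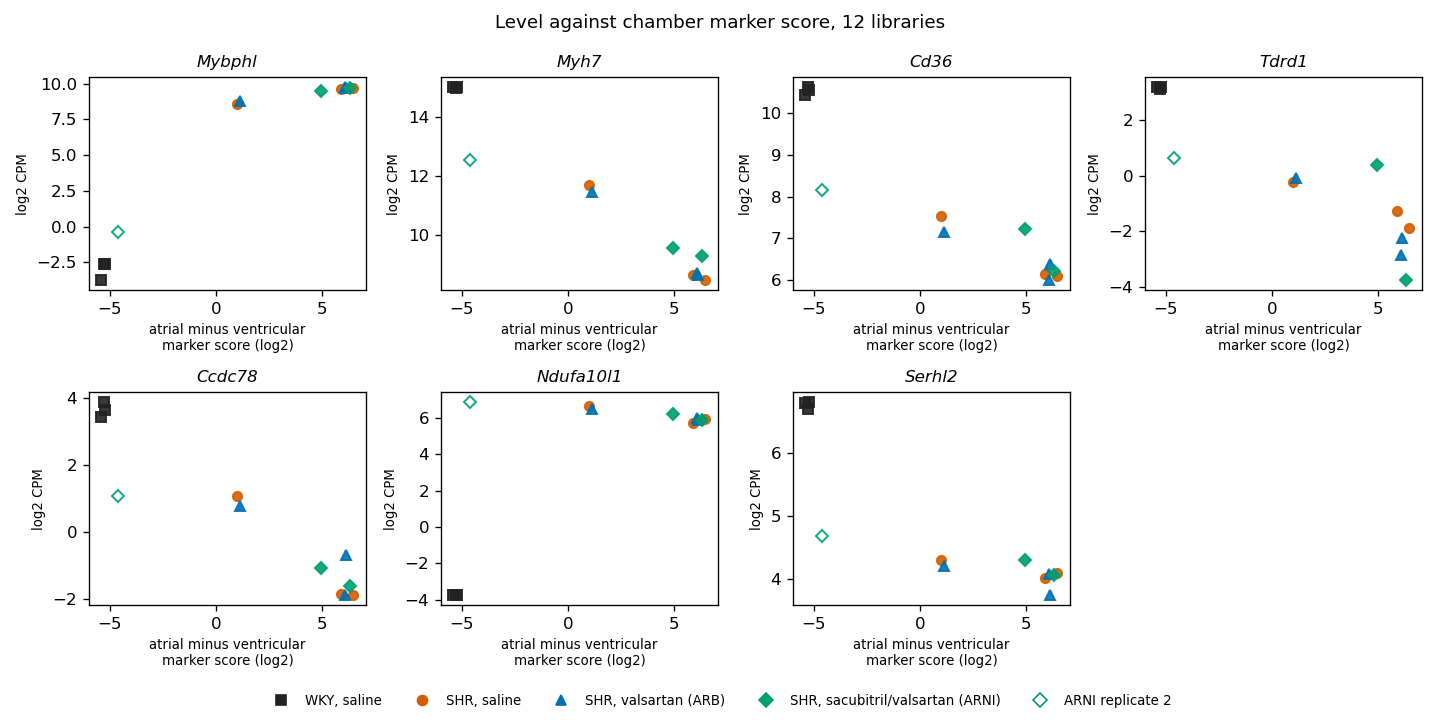
Level in log2 CPM of 7 members against the score of atrial minus ventricular markers, with 1 point per library. Mybphl, Myh7, Cd36, Tdrd1 and Ccdc78 range over at least 2 log2 among the SHR-strain libraries, and Ndufa10l1 and Serhl2 over 1.14 and 0.94 log2.

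With the score as a covariate the fitted difference between the strains went from -4.29 to -1.27 log2 for Myh7 and from -4.00 to -1.40 for Ccdc78 and from -3.64 to -2 for Cd36. It grew from -3.70 to -5.19 for Trim67, and from -5.79 to -10.17 for Dnah14 and from -6.54 to -9.21 for Gsta1, which are at or near 0 in the SHR strain, where a fitted value depends on the prior count. It was 3.09 and 3.14 log2 for Rubcnl and -3.33 and -3.06 for Gvin1. These are descriptions, since the members were chosen on this contrast and ARNI replicate 2 alone joins the scores of the strains. Of all 14452 genes tested, 693 were called higher and 395 lower without the score, and 76 and 52 with it.

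The edge of the set was not sharp, and with a prior count of 2 Mybphl and F2rl2 were no longer in it. Inside it lay F2rl2, the thrombin receptor PAR3, with 0 in WKY and 0.236, 0.569 and 3.90 CPM in the SHR strain, the highest in ARB replicate 1. Serhl2, a serine hydrolase-like protein, had 112, 110.5 and 103 CPM in WKY and 13.3, 17.1 and 25.6 CPM in the SHR strain. Just outside were Bmp10, an atrial growth factor, at 0 to 0.0889 CPM in WKY and 0.550 to 1741 CPM in the SHR strain, Arhgef5, a guanine nucleotide exchange factor, at 3.24 to 4.09 against 14.8 to 25.1 CPM, LOC103693260, and Cdh9, a cadherin. The gaps of these 4 genes were 1.94, 1.84, 1.99 and 1.99 log2. Trim67, known as a neuronal ubiquitin ligase, had 7.59, 6.87 and 11.6 CPM in WKY and 0.238, 0.677 and 1.38 CPM in the SHR strain.

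The treatments were compared within the 9 SHR-strain libraries, without the WKY values. The rule had used the same 9 libraries, so a gene that a treatment moved close to WKY could not be a member. The members that the filter left out had no or almost no read in these libraries. Of 28 members tested, 0 were called among 14278 genes (0% called by edgeR's quasi-likelihood F-test, with 395 genes at an unadjusted p under 0.05), and DESeq2 called 15 genes, 0 of them members. Of the members, 1 was at an unadjusted p under 0.05, Rps19 (edgeR, adjusted p = 1). Valsartan against saline differed by less than 1 log2 in 27 of 28 members, the exception being F2rl2 (1.74), whose highest value was that of ARB replicate 1. Sacubitril/valsartan against saline differed by less than 1 log2 in 26 of 28, the exceptions including Tdrd1 (1.12), which was high in ARNI replicate 2 and ARNI replicate 3. With 3 libraries a group, of which ARNI replicate 2 differed in chamber markers, this does not show that the treatments acted alike.

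Of 37 tested genes of respiratory complex I, 1 was called higher, Ndufa10l1, and 1 lower, Ndufa10, beside 4.8% and 2.73% of all genes tested. Ndufa10l1 was chosen by its level on this contrast, so its call is no test of it. The median log2 fold change was -0.25, and Ndufs1 (-0.65, edgeR adjusted p = 0.0719) and Ndufs4 (-0.62, adjusted p = 0.118) did not pass. The 2 calls became 1 when WKY replicate 1, 2 or 3 was left out. The total expected counts were 11252361 to 11730665 in WKY and 12614041 to 15823525 in the SHR strain without overlap, so depth moved with the strain. When the libraries were thinned to the smallest total, 18 of 20 higher and 17 of 17 lower genes were among the 36. At this depth 3 counts corresponded to 0.190 to 0.267 CPM, and a member at 0 is not detectable rather than absent.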

How the data were processed

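Total RNA of the left atrium was extracted, its mRNA was enriched on oligo(dT) beads, and 12 libraries of 4 groups of 3 were sequenced. Per the study's methods and the labels, the authors filtered reads with SOAPnuke, aligned them with HISAT2 (2.0.4) and Bowtie2 (2.2.5), with the build Rnor 6.0 named in the submitters' processing notes, then deposited RSEM's expected counts, with a value for each gene and library, without normalization. RSEM divides reads between like sequences, so 22.7% of the values were not whole (tolerance 0.01). The table lists 37246 genes, 21239 of them with counts. Its 2 columns of the authors' own comparison, a log2 fold change and a p-value, were not used. Gene names, order and start windows came from RefSeq (GRCr8), where 34 of the 36 genes were found. 6 are printed under RefSeq's names: Diablol1, Cbr1l2, Cbr1l3, Senp5-ps1, Eif5-ps1 and Tdpoz2l7 are LOC100360940, LOC102556347, LOC100360601, RGD1564247, RGD1564400 and LOC689002 in the deposited table.

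CPM was computed on total counts. The counts, rounded to whole numbers, were tested in edgeR (4.0.16, R 4.3.3) by the quasi-likelihood test with TMM scaling and filterByExpr. Adjustment was by Benjamini and Hochberg, and a gene was called where its log2 fold change reached 1 in size with an adjusted p of at most 0.05, or at adjusted p alone for the treatment test. DESeq2 (1.42.0) was an alternative. Named were the 15 members of widest gap in each direction, members on a list, next to another member or sharing reads, the 2 genes on each side of the edge, and the 3 list genes of largest fold change. The members and lists were chosen with earlier results of these data known. The design names 3 rats a group. In the strain test the SHR-strain libraries of all treatments formed 1 class against WKY, without a term for treatment. Its p-values measure the spread within these classes, which in the SHR-strain class includes differences of treatment and chamber markers. With the 4 groups in the fit, 612 genes were called higher and 401 lower, beside 693 and 395. In the treatment test p-values measure the spread between the 3 libraries of a group. Of the 36 genes, 1 is counted but not reported here by name.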

Additional observations from a re-analysis of the deposited data

Results flagged for a closer look

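In 5 of the 36 genes, 1 of the 9 SHR-strain libraries lay far from the others by Dixon's ratio of the gap to the range, where chance gives about 1 in 20. Mybphl was low in ARNI replicate 2 (ratio 0.882), the library whose atrial markers were at the level of WKY, and Ccdc92 was low in the same library (0.528). Dnah14 was high in ARB replicate 1 (0.495). Mettl24 in ARB replicate 2 and Gsta1 in SHR replicate 3 had a ratio of 1, since the other 8 libraries had no read.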

How the results depend on the processing

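The counts of 18 higher and 18 lower genes depended on the rule and the libraries. They became 53 and 72 at a gap of 1, 11 and 7 at a gap of 3, 139 and 46 with only the saline SHR libraries against WKY, and 80 and 140 with only ARNI replicate 2 against WKY. Leaving out 1 library gave 18 to 105 higher genes, the most without ARNI replicate 2, and 18 to 31 lower genes, the most without WKY replicate 3. With TMM scaling 17 of the genes remained in each direction, Creg1 and Serhl2 leaving, while Mybphl and F2rl2 left at a prior count of 2, Tdpoz2l7 under filterByExpr and Serhl2 when the libraries were thinned. Of the gaps of single genes under the alternatives, 606 moved by less than 1 SD of that gene's 9 libraries, 77 did not stay below it, and 0 changed direction. This measure is uneven between genes. The 3 genes at 0 in all 9 libraries have no spread, so any change reached their SD. Mybphl ranged over 10.1 log2, so only a large change could do so.

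In the fit over all genes, leaving out 1 library gave 220 to 991 calls higher and 150 to 724 lower. Without WKY replicates 1, 2 and 3 in turn, 287, 224 and 220 genes were called higher and 155, 150 and 157 lower, and 724 were called lower without ARNI replicate 2. Scaling by total counts moved the median over all genes, in log2 fold change, from 0.02 to 0.12. With the chamber score the calls were 76 and 52. Of the 10 lists, 52 genes were called, 13 with the score and 21 to 96 when 1 library was left out. The treatment test called 15 genes by DESeq2 and 0 by edgeR. The cause of these changes was not tested.

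Whether the replicate numbers pair the libraries was not settled. Deviations of same-numbered libraries correlated between -0.445 and 0.516, and those of different-numbered libraries between -0.545 and 0.585. Replicate 1 of the SHR, ARB and ARNI groups correlated at 0.418 to 0.516. Chamber markers also differ between replicates, and the correlations do not separate them from a pairing. With the number as a block, 663 genes were called higher and 579 lower. Chamber, depth and strain move together across WKY, and only 1 SHR-strain library resembles WKY in its markers, which limits every comparison of the strains.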
